A study of Arabidopsis thaliana with 9 samples.

Results

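The apical hook is the bent upper part of the hypocotyl of a seedling grown in darkness. It forms because cells on its inner side elongate less than cells on its outer side, and auxin and ethylene are known to set this difference. Aux/IAA proteins repress auxin-responsive transcription. Canonical members carry a degron through which auxin and the TIR1/AFB receptors direct their breakdown, whereas IAA32 and IAA34 lack it. TMK1, a receptor-like kinase at the cell surface, is known to phosphorylate both proteins.

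The comparison described here set hooks of the Arabidopsis thaliana double mutant iaa32iaa34 against WT hooks of the Col-0 accession, over every gene of the deposited expression table. It used the 6 libraries labelled with these genotypes, 3 of each, out of 9 libraries in the series. Seedlings were 45 h old and had been kept in darkness at 22 °C. Each library came from about 50 pooled hooks, excised at a length of about 2 mm and freed of cotyledons, and the labels describe the 3 samples of a genotype as biological replicates. The sources used here name neither the alleles of iaa32 and iaa34 nor whether the double mutant is 1 line. The title of the series speaks of auxin signalling and of differential growth. The comparison asks which transcripts differ in the hook when these non-canonical Aux/IAA genes are mutated.

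Values are in CPM, that is, reads of a gene scaled to a fixed library total. The smallest steps of the values implied totals of 10562399 to 12314517 reads per library, and the median gene received 204 to 246 reads. Across genes, Pearson's r was 0.964 to 0.972 among iaa32iaa34 libraries, 0.967 to 0.983 among WT libraries and 0.932 to 0.975 between genotypes. These values describe the libraries only, since genes are not independent replicates. Replicate 2 of iaa32iaa34 stood apart from its group. It correlated with the other iaa32iaa34 libraries at 0.964 to 0.967 and with the WT libraries at 0.970 to 0.975. Principal component 1 carried 42.5% of the variance, with scores of 44.7, -4.7 and 23.61 for iaa32iaa34 replicates 1 to 3, against -16.3, -10.2 and -37.1 for WT replicates 1 to 3. Counts of calls are given with and without replicate 2 of iaa32iaa34. That library was singled out after its values were seen. A gene that passes only without it is therefore given as a value and not as a call. For gene lists, the leave-one-out range is the lowest and highest median log2 fold change when each of the 6 libraries is left out in turn. Except for the organelle-encoded transcripts, the lists were chosen with earlier results of these data known. Their shares beside those of all genes are thus description and not independent support, and no set test was run. The tissue label was examined through HLS1, a gene required for hook formation, which stood at 11, 23.8 and 14.7 CPM in iaa32iaa34 and at 21.8, 14.1 and 9.39 CPM in WT. HLS1 was thus detected in all 6 libraries, and its groups overlapped (limma, log2 fold change 0.13 ± 0.34 SE, adjusted p = 0.884).

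The mutated genes were examined first. IAA32 stood at 6.44, 10.5 and 8.48 CPM in iaa32iaa34, against 55.3, 43.0 and 50.9 CPM in WT. All iaa32iaa34 libraries were lower than all WT libraries, and IAA32 fell by 2.44 on the log2 scale (SE 0.20, limma, adjusted p = 0.00344). The transcript was therefore reduced but still counted in every library labelled iaa32iaa34. IAA34 was not analysed here, so the second mutation has no check in these values. IAA30, another member without the canonical degron, had 3.6, 3.02 and 3.6 CPM in iaa32iaa34 and 3.18, 2.11 and 2.65 CPM in WT, which overlapped (limma, adjusted p = 0.512). TMK1 had 477, 463 and 514 CPM in iaa32iaa34 and 387, 468 and 469 CPM in WT, so the groups overlapped (limma, log2 fold change 0.14 ± 0.15, adjusted p = 0.695). TMK4 (BARK1), a relative of TMK1, had 300, 230 and 243 CPM in iaa32iaa34 and 220, 297 and 239 CPM in WT, with overlap (limma, adjusted p = 0.943). Of the genes beside the mutated loci, the 10 nearest measured neighbours of IAA32 had log2 fold changes of -0.53 to 0.13, and the 10 nearest of IAA34 had -0.49 to 0.24. None of these neighbours passed the threshold, with lowest adjusted p-values of 0.275 and 0.267 in limma.

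Across all 16383 genes, 12 differed between iaa32iaa34 and WT at an adjusted p under 0.05 (limma), or 0.0732% of those tested. Of these 6 rose, or 0.0366%, and 6 fell, also 0.0366%. The risers with a symbol were TUA2, TPX2, HEI10, RAB18 and ACS11, and the fallers with a symbol were IAA32, XTH5 and CYP96A7. Another 4 called genes carry no symbol. At an unadjusted p under 0.05 there were 2436 genes, or 14.9%, of which 923, or 5.63%, were higher and 1513, or 9.24%, lower. The iaa32iaa34 libraries lay wholly above the WT libraries for 1072 genes, or 6.54%, and wholly below for 2390 genes, or 14.6%. With libraries rescaled by median-of-ratios factors these counts were 1504 and 1855, and with TMM factors 1399 and 1966, so the excess of lower genes narrowed under both. The median log2 fold change of all genes was -0.06 as deposited, 0.01 after median-of-ratios scaling and 0.00 after TMM scaling. The count of 12 depended on single libraries. It was 168 without iaa32iaa34 replicate 2, or 1.03% of genes, with 115 higher (0.702%) and 53 lower (0.324%), and all 12 were among them. It was 6 without iaa32iaa34 replicate 1 or replicate 3, and 6, 5 and 8 without WT replicates 1, 2 and 3.

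**Figure D1:**
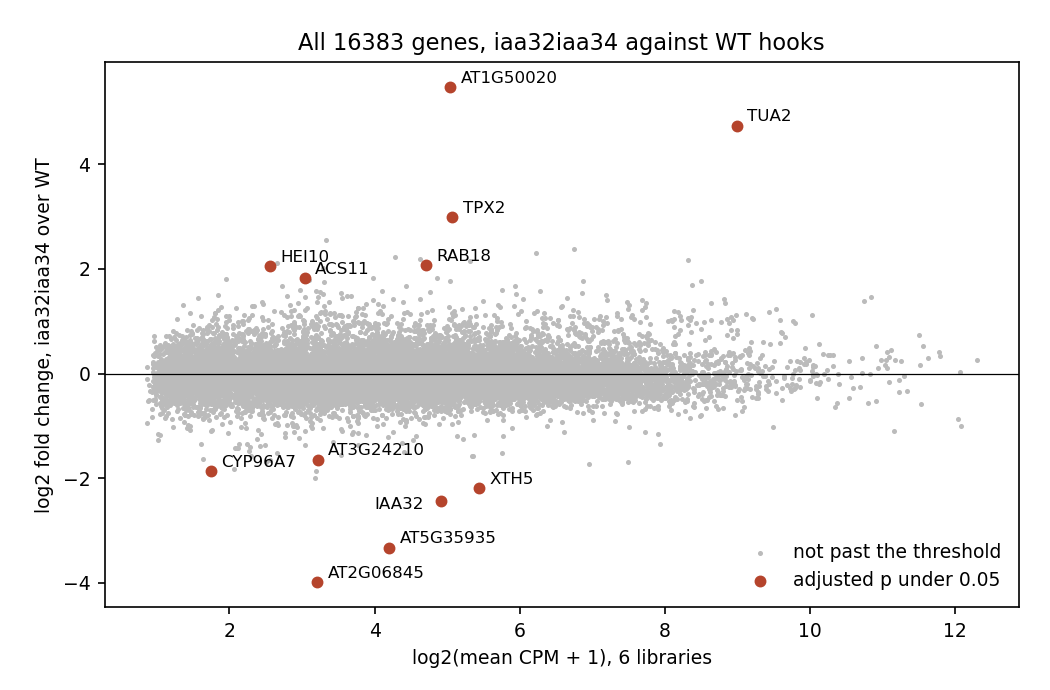
Log2 fold change of iaa32iaa34 over WT (vertical axis, on the log2(CPM + 1) scale) against log2 of the mean CPM plus 1 over 6 libraries (horizontal axis) for 16383 genes, each a point. The 12 genes past the adjusted p threshold are red and named. TUA2 stands far above the other points of its level, at 4.74, and AT2G06845 is lowest at -4.0.

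The gene with the smallest p was TUA2, which encodes an alpha-tubulin, a subunit of microtubules. It had 952, 986 and 1000 CPM in iaa32iaa34, against 35.1, 31.9 and 40.5 CPM in WT. The groups were far apart, and TUA2 rose by 4.74 on the log2 scale (SE 0.14, limma, adjusted p = 5.72e-06). The call was kept under all 16 alternative settings. The gene next to TUA2 among those measured, AT1G50020, rose as well. It had 82.4, 37.6 and 70.6 CPM in iaa32iaa34, against 0, 1.06 and 0.256 CPM in WT. These values correspond to 2118 reads over the iaa32iaa34 libraries and 16 over the WT libraries, a depth-adjusted ratio of 138 (95% exact binomial interval 85.0 to 243, counting error only). AT1G50020 has no symbol and is annotated in RefSeq with the product name of an alpha-tubulin chain. It rose by 5.48 on the log2 scale (SE 0.35, limma, adjusted p = 6.98e-04). The other 9 nearest measured neighbours of TUA2 had log2 fold changes of -1.02 to 0.89, and none passed the threshold (limma, lowest adjusted p = 0.211).

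The alpha-tubulin list holds TUA1 to TUA6 and not AT1G50020, and its members other than TUA2 did not pass the threshold. TUA1 had 50.9, 42.9 and 47.0 CPM in iaa32iaa34 and 31.6, 33.8 and 44.9 CPM in WT, with overlapping groups (limma, adjusted p = 0.364). TUA3, TUA4, TUA5 and TUA6 had log2 fold changes of -0.03, -0.27, -0.16 and -0.26, and the groups overlapped for each (limma, adjusted p = 0.962, 0.528, 0.636 and 0.572). TUA2 made up 18 ± 1.5% of the summed CPM of these 6 genes in iaa32iaa34 and 0.693 ± 0.039% in WT (SD, n = 3 each). The sum over the 6 genes was 5464 ± 584 CPM in iaa32iaa34 and 5181 ± 751 CPM in WT, and without TUA2 it was 4484 ± 560 CPM in iaa32iaa34 and 5145 ± 747 CPM in WT. Both sums overlapped between groups. These genes are near-identical in places and AT1G50020 lies beside TUA2, so how reads were divided among them is uncertain.

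**Figure D2:**
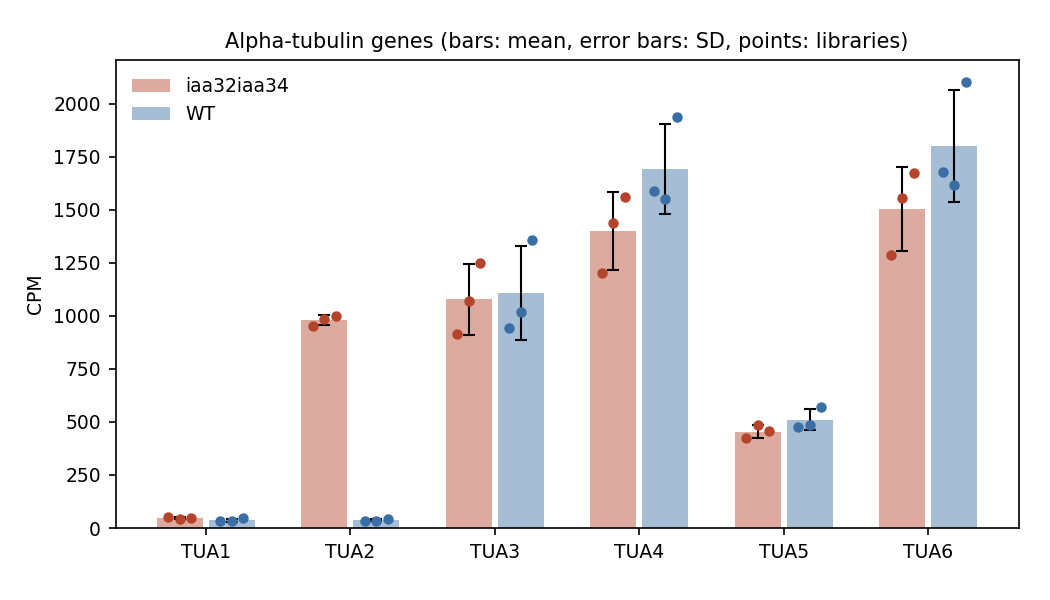
CPM of the 6 listed alpha-tubulin genes, TUA1 to TUA6, in iaa32iaa34 (left, red) and WT (right, blue). Points are libraries, bars are means of 3 and error bars are SDs. TUA2 is near 1000 CPM in iaa32iaa34 and below 41 CPM in WT, while the groups overlap for the other 5 genes.

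Beta-tubulins, the partners of alpha-tubulins in the microtubule, numbered 9 measured members. None rose or fell, 1 had a log2 fold change above 0 and 8 below, against 58.2% of all genes below. The median was -0.25 (leave-one-out range -0.35 to -0.20), against -0.06 over all genes, and 3 lay wholly below WT, against 14.6% of all genes. TUB1 had 300, 411 and 385 CPM in iaa32iaa34, against 552, 636 and 709 CPM in WT, without overlap (limma, log2 fold change -0.79 ± 0.18, adjusted p = 0.194). TUB3 and TUB9 were also lower in every iaa32iaa34 library than in any WT library, and the other 6 overlapped.

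Among the other genes that rose, TPX2 (AT1G65970) encodes a thioredoxin-dependent peroxidase, an enzyme that removes peroxides. It had 40.1, 74.9 and 61.0 CPM in iaa32iaa34, against 9.18, 5.28 and 4.95 CPM in WT. The groups did not overlap, and TPX2 rose by 3.00 on the log2 scale (SE 0.28, limma, adjusted p = 0.01). Close relatives of TPX2 exist in the genome, and how its reads were divided is uncertain. HEI10, known for its role in meiotic crossing-over, had 7.57, 10.2 and 7.71 CPM in iaa32iaa34, against 1.36, 1.71 and 0.853 CPM in WT. The groups did not overlap, and HEI10 rose by 2.05 on the log2 scale (SE 0.21, limma, adjusted p = 0.0207). ACS11 encodes an ACC synthase, the enzyme family that makes the ethylene precursor, and is treated with the ethylene genes below. RAB18 (AT5G66400), a dehydrin that responds to abscisic acid, had 29.9, 54.6 and 39.8 CPM in iaa32iaa34, against 11.2, 9.58 and 6.4 CPM in WT. It rose by 2.07 on the log2 scale (SE 0.26, limma, adjusted p = 0.0497), close to the threshold, and passed under 5 of 16 alternatives.

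Among genes that fell, AT2G06845 was nearly absent from the mutant libraries. It had 1 read in each iaa32iaa34 library, worth 0.0947, 0.0887 and 0.0857 CPM, against 17.5, 15.5 and 16.1 CPM in WT. Over the 3 libraries of each genotype this was 3 reads in iaa32iaa34 and 573 in WT, a depth-adjusted ratio of 0.00547 (95% exact binomial interval 0.00113 to 0.0161, counting error only). It fell by 4.0 on the log2 scale (SE 0.17, limma, adjusted p = 4.49e-05). RefSeq annotates AT2G06845 as a beta-galactosidase related protein. AT5G35935, annotated as a pseudogene, had 2.46, 2.93 and 1.63 CPM in iaa32iaa34, against 39.5, 28.5 and 29.4 CPM in WT, and fell by 3.33 on the log2 scale (SE 0.21, limma, adjusted p = 6.98e-04). XTH5 encodes a xyloglucan endotransglucosylase/hydrolase, an enzyme that cuts and rejoins the xyloglucan of the cell wall. It had 10.1, 21.9 and 13.8 CPM in iaa32iaa34, against 67.5, 66.5 and 75.5 CPM in WT, and fell by 2.18 on the log2 scale (SE 0.25, limma, adjusted p = 0.0290).

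The remaining called genes were low. CYP96A7, annotated as a transcribed pseudogene, had 0.473, 0.532 and 0.257 CPM in iaa32iaa34, against 5.0, 3.0 and 4.78 CPM in WT (limma, log2 fold change -1.87 ± 0.23, adjusted p = 0.0386). AT3G24210, an ankyrin repeat family gene, had 3.31, 4.08 and 3.08 CPM in iaa32iaa34, against 10.4, 14.7 and 14.3 CPM in WT (limma, log2 fold change -1.64 ± 0.19, adjusted p = 0.0361). The groups did not overlap for either gene, and both were named after their values were seen. Of the 12 calls, 5 passed under all 16 alternatives, namely TUA2, AT1G50020, AT2G06845, AT5G35935 and IAA32. The others passed under 5 (RAB18) to 13 (TPX2).

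**Figure D3:**
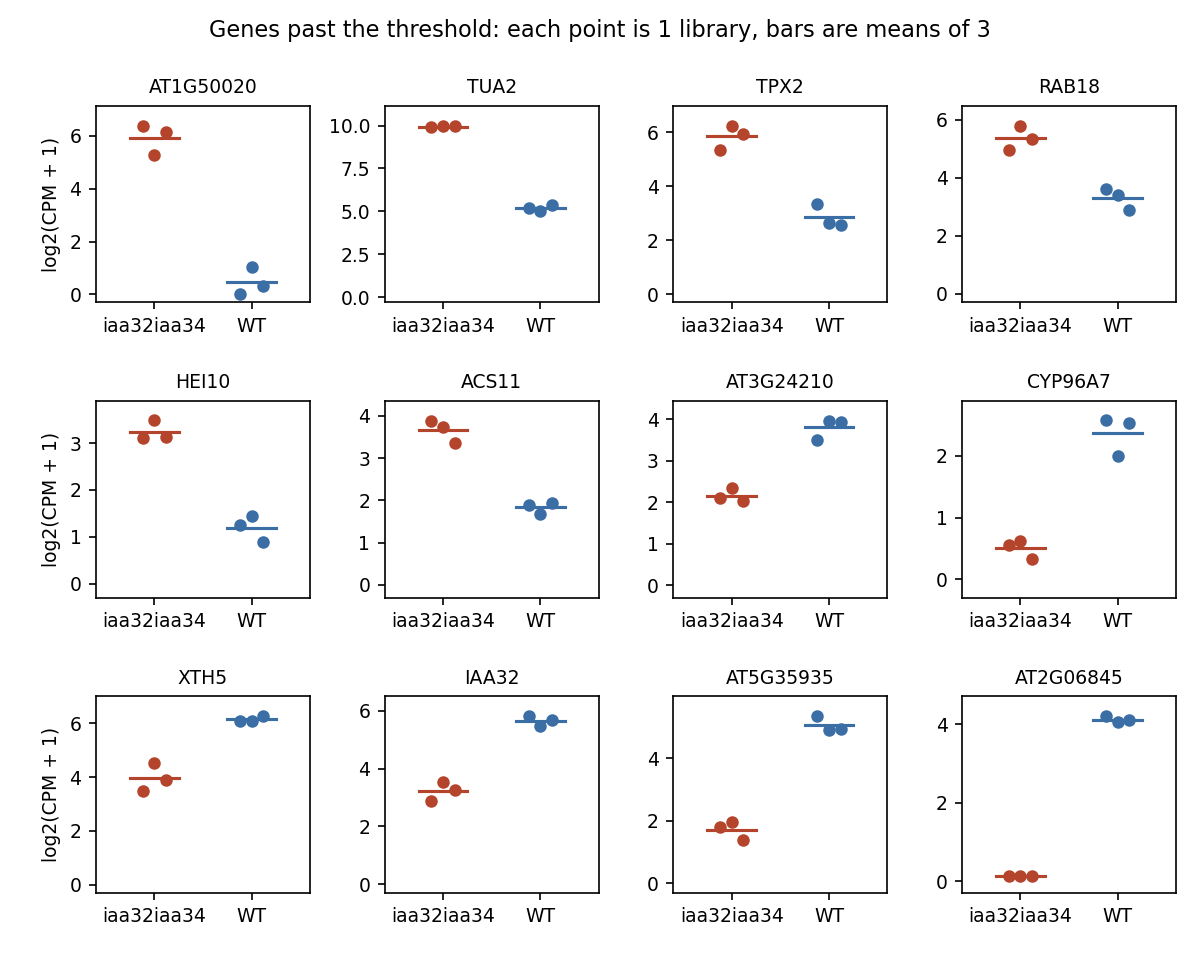
Log2(CPM + 1) of each of the 12 genes past the threshold, in iaa32iaa34 (left, red) and WT (right, blue), 1 panel per gene with its own axis. Points are libraries and bars are means of 3, and in all 12 panels the groups do not overlap.

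Some genes that did not pass are given as values, with adjusted p-values of 0.0571 to 0.18 in limma. The lowest was that of ICL, isocitrate lyase, which acts in the conversion of seed oil to sugar. It had 268, 186 and 190 CPM in iaa32iaa34, against 72.5, 89.2 and 62.3 CPM in WT (limma, log2 fold change 1.51 ± 0.20, adjusted p = 0.0571). Without iaa32iaa34 replicate 2 it passed (limma, adjusted p = 0.0377). UGT84A3, a glucosyltransferase of hydroxycinnamates, had 13.6, 7.18 and 6.85 CPM in iaa32iaa34, against 1.09, 2.03 and 0.853 CPM in WT (limma, adjusted p = 0.0789). GASA6, a gibberellin-regulated peptide gene, had 264, 273 and 235 CPM in iaa32iaa34, against 136, 82.3 and 97.2 CPM in WT (limma, log2 fold change 1.31 ± 0.20, adjusted p = 0.106). The cytochrome P450 gene CYP706A1 and the monooxygenase gene MO1 also lay wholly above WT, with log2 fold changes of 1.16 and 0.93 (limma, adjusted p = 0.0789 and 0.107). On the lower side, ADS4, a desaturase family gene, had 14.2, 26.2 and 19.0 CPM in iaa32iaa34, against 52.6, 55.4 and 73.1 CPM in WT (limma, adjusted p = 0.0966). The endoplasmic reticulum heat shock gene ATHSP22.0 had 1.70, 1.33 and 1.97 CPM in iaa32iaa34, against 4.64, 6.90 and 5.80 CPM in WT (limma, adjusted p = 0.106). AGP31, an arabinogalactan protein gene of the cell wall, had 88.2, 139 and 131 CPM in iaa32iaa34, against 271, 217 and 234 CPM in WT. Its adjusted p was 0.18 in limma. EXO70C2, SPX1, ADS1 (the locus AT4G29140, since another gene shares the symbol), GR-RBP2 and PDLP2 were lower in every iaa32iaa34 library than in any WT library, with adjusted p-values of 0.169 to 0.18 in limma.

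Auxin genes were grouped by role. Of 6 measured auxin synthesis genes none rose or fell and all 6 had a log2 fold change below 0, against 58.2% of all genes, with a median of -0.19 (leave-one-out range -0.31 to -0.08). Without iaa32iaa34 replicate 2 the median was -0.08, with 1 above 0 and 5 below. TAA1, the aminotransferase that begins the main route to auxin, had 35.8, 63.9 and 45.8 CPM in iaa32iaa34, against 83.8, 75.4 and 97.8 CPM in WT, without overlap (limma, log2 fold change -0.84 ± 0.22, adjusted p = 0.207). YUC3, a flavin monooxygenase that follows it, had 2.93, 13.3 and 8.14 CPM in iaa32iaa34 and 16.6, 12.9 and 15.9 CPM in WT, with overlap (limma, adjusted p = 0.32). Of 21 transport genes none passed, 6 were above 0 and 15 below, against 58.2% of all genes below. Their median was -0.14 (leave-one-out range -0.23 to -0.07). PIN3, an auxin exporter of the hook, had 464, 356 and 442 CPM in iaa32iaa34 and 410, 496 and 383 CPM in WT, with overlap (limma, adjusted p = 0.95). None of the 6 auxin receptor genes passed, and their median was 0.01, with a sign that depended on the library left out (leave-one-out range -0.03 to 0.08). AFB1 (GRH1) had 152, 170 and 148 CPM in iaa32iaa34, against 210, 229 and 198 CPM in WT, without overlap (limma, log2 fold change -0.44 ± 0.14, adjusted p = 0.251).

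Downstream of the receptors, 21 canonical Aux/IAA genes were measured and none rose or fell. Their median log2 fold change was -0.05, and it turned positive at 0.02 and 0.01 with median-of-ratios and TMM scaling and at 0.15 and 0.11 without iaa32iaa34 replicate 1 or WT replicate 3. IAA16 had 514, 495 and 652 CPM in iaa32iaa34, against 387, 394 and 485 CPM in WT (limma, log2 fold change 0.39 ± 0.18, adjusted p = 0.352), and IAA1 had 63.0, 59.1 and 69.2 CPM in iaa32iaa34, against 79.1, 74.6 and 83.5 CPM in WT (limma, log2 fold change -0.31 ± 0.13, adjusted p = 0.334). IAA16 thus lay wholly above WT and IAA1 wholly below, and neither passed. Of 14 auxin response factor genes none passed, with a median of -0.07 (leave-one-out range -0.14 to -0.005). ARF11 had 29.1, 26.4 and 23.56 CPM in iaa32iaa34, against 18.9, 17.7 and 11.7 CPM in WT, without overlap (limma, adjusted p = 0.23). Of 35 SAUR genes, which auxin induces and which promote cell expansion, none passed. Among them 12 were above 0 and 23 below, against 58.2% of all genes below. Their median of -0.10 was 0.07 without iaa32iaa34 replicate 2, with 22 above and 13 below, and the leave-one-out range was -0.44 to 0.09. Of 7 GH3 genes, whose enzymes join auxin and jasmonate to amino acids, 5 were above 0, against 41.8% of all genes, and 2 below. None passed (limma, lowest adjusted p = 0.194), and the median was 0.61 (leave-one-out range 0.43 to 0.61). Their log2 fold changes ran from -0.59 to 0.93. Of the 7 genes 2 lay wholly above WT, against 6.54% of all genes, and 1 wholly below, against 14.6% of all genes. GH3.3 had 25.2, 22.2 and 13.2 CPM in iaa32iaa34, against 13.1, 8.36 and 8.45 CPM in WT, without overlap (limma, log2 fold change 0.93 ± 0.27, adjusted p = 0.231). GH3.6 (DFL1) had 191, 109 and 209 CPM in iaa32iaa34 and 101, 107 and 113 CPM in WT. It passed without iaa32iaa34 replicate 2 (limma, adjusted p = 0.0471) but not with it (limma, adjusted p = 0.306). The proton pump genes AHA1 (HA1) and AHA3 (HA3) had log2 fold changes of -0.21 and 0.53, and neither passed (limma, adjusted p = 0.626 and 0.278).

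Ethylene synthesis, perception and hook genes numbered 23 measured members. ACS11 rose, against 0.0366% of all genes, and none fell. A log2 fold change above 0 was found for 6 and below 0 for 17, against 58.2% of all genes below. The median was -0.18. Without iaa32iaa34 replicate 2 the median was -0.37, with 4 above 0 and 19 below, and without iaa32iaa34 replicate 3 it was -0.06. ACS11 had 13.8, 12.4 and 9.25 CPM in iaa32iaa34, against 2.73, 2.19 and 2.82 CPM in WT, without overlap (limma, log2 fold change 1.83 ± 0.20, adjusted p = 0.0226). Of the 23 genes 4 lay wholly below WT, a share near the 14.6% of all genes. ACS4, ACS5 and ACS8, of the same family as ACS11, were among them, while ACS2 and ACS6 overlapped with log2 fold changes of 0.37 and 0.40. ACS5 had 11.6, 15.8 and 22.3 CPM in iaa32iaa34, against 25.6, 28.9 and 42.6 CPM in WT (limma, log2 fold change -0.94 ± 0.26, adjusted p = 0.228), and ACS8 had 1.89, 4.08 and 3.68 CPM in iaa32iaa34, against 7.46, 5.85 and 8.02 CPM in WT (limma, log2 fold change -0.97 ± 0.25, adjusted p = 0.205). These 3 genes were chosen after their values were seen, and none passed. The ethylene receptor gene ETR2 had 13.7, 49.8 and 17.39 CPM in iaa32iaa34 and 60.7, 39.2 and 61.9 CPM in WT. The groups overlapped through iaa32iaa34 replicate 2, and without that library ETR2 passed as lower (limma, log2 fold change -1.71 ± 0.24, adjusted p = 0.0385). That library was left out after its values were seen, so ETR2 is not counted as called. EIN3, a transcription factor of ethylene signalling, had 220, 293 and 178 CPM in iaa32iaa34 and 226, 208 and 201 CPM in WT, with overlap (limma, adjusted p = 0.85).

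Other hormone genes gave few differences. Of 18 gibberellin genes none passed, with a median of -0.08 (leave-one-out range -0.13 to -0.02). GA2OX8, which inactivates gibberellins, had 3.22, 1.24 and 4.03 CPM in iaa32iaa34, against 6.55, 21.2 and 12.6 CPM in WT, without overlap (limma, log2 fold change -1.86 ± 0.42, adjusted p = 0.194). GA2, an enzyme of early gibberellin synthesis, had 11.5, 17.1 and 11.1 CPM in iaa32iaa34, against 19.8, 19.2 and 20.1 CPM in WT (limma, log2 fold change -0.57 ± 0.19, adjusted p = 0.263). Of 4 GASA peptide genes, GASA6 was above WT as given above, and GASA4 had 2894, 3478 and 2545 CPM in iaa32iaa34, against 6181, 4102 and 6119 CPM in WT, without overlap (limma, log2 fold change -0.87 ± 0.26, adjusted p = 0.236). Of 13 brassinosteroid genes none passed, 8 were above 0, against 41.8% of all genes, and 4 lay wholly above WT, against 6.54% of all genes. The median was 0.20, and 0.02 without iaa32iaa34 replicate 3. The hydroxylase genes ROT3 and DWF4 had log2 fold changes of 0.86 ± 0.24 and 0.73 ± 0.20 (limma, adjusted p = 0.226 for both). Of 9 cytokinin response regulator genes none passed, 7 were below 0, against 58.2% of all genes, and the median was -0.21 (leave-one-out range -0.31 to -0.05). Of 12 abscisic acid and dehydration genes RAB18 rose, against 0.0366% of all genes, and none fell. The median was 0.10, with 8 above 0, against 41.8% of all genes, and 4 below. Without iaa32iaa34 replicate 2 the median was -0.02, with 5 above 0 and 7 below. Over the 12 genes 3 lay wholly above WT, against 6.54% of all genes. Besides RAB18 these were RD29B (LTI65) and NCED3, an enzyme of abscisic acid synthesis. They had log2 fold changes of 1.58 ± 0.30 and 0.76 ± 0.25 (limma, adjusted p = 0.179 and 0.266). Of 10 wounding and jasmonate genes and 7 salicylate and defence genes none passed, with medians of 0.16 and 0.32 (leave-one-out ranges 0.11 to 0.31 and 0.20 to 0.44).

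Cell wall genes were set beside XTH5. Of 32 expansin and XTH genes XTH5 fell, against 0.0366% of all genes, and none rose. With 16 above 0 and 16 below, the median was -0.02 (leave-one-out range -0.06 to 0.14). It was 0.05 and 0.04 with median-of-ratios and TMM scaling. XTH6 had 54.2, 7.89 and 34.4 CPM in iaa32iaa34, against 4.82, 5.36 and 3.5 CPM in WT (limma, log2 fold change 2.24 ± 0.58, adjusted p = 0.205). XTH7 had 31.5, 18 and 38.4 CPM in iaa32iaa34, against 7.0, 13.1 and 11.5 CPM in WT (limma, log2 fold change 1.37 ± 0.31, adjusted p = 0.194). Both lay wholly above WT, were chosen after their values were seen, and passed without iaa32iaa34 replicate 2 (limma, adjusted p = 0.00966 for XTH6 and 0.0471 for XTH7). Over the 32 genes 4 lay wholly above WT, against 6.54% of all genes, and 6 wholly below, against 14.6% of all genes. Of 8 primary wall cellulose genes none passed, 7 were below 0, against 58.2% of all genes, and 4 lay wholly below WT, against 14.6% of all genes. The median was -0.26 (leave-one-out range -0.30 to -0.16). CESA3 (CEV1), a catalytic subunit of cellulose synthase, had 851, 845 and 718 CPM in iaa32iaa34, against 939, 1010 and 969 CPM in WT (limma, adjusted p = 0.45).

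Photosynthesis genes of the nucleus had the highest median of the lists in the plot of gene lists, although none of them passed the threshold. Of 43 measured members all had a log2 fold change above 0, against 41.8% of all genes, and 19 lay wholly above WT, against 6.54% of all genes. The median was 1.03 and the range 0.36 to 2.16. Like the other lists, this list was chosen with earlier results of these data known. The difference followed the library. Averaged over the list, the deviation from the 6-library mean was 1.00, -0.31 and 0.91 on the log2 scale in iaa32iaa34 replicates 1 to 3, against -0.33, -0.25 and -1.02 in WT replicates 1 to 3. Replicate 2 of iaa32iaa34 therefore stood with WT replicates 1 and 2. The summed level of the list was 16122 to 37104 CPM in iaa32iaa34 and 9313 to 17638 CPM in WT, which overlapped. The leave-one-out range of the median was 0.83 to 1.43. It was highest, at 1.43, without iaa32iaa34 replicate 2, a library singled out after its values were seen. Without that library 20 of 43 passed as higher, against 0.702% of all genes.

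LHCA2, an antenna protein of photosystem I, had 771, 467 and 702 CPM in iaa32iaa34, against 340, 270 and 166 CPM in WT, without overlap (limma, log2 fold change 1.35 ± 0.29, adjusted p = 0.19). PETC, the Rieske protein of the cytochrome b6f complex, had 313, 203 and 288 CPM in iaa32iaa34, against 159, 145 and 102 CPM in WT (limma, log2 fold change 0.98 ± 0.23, adjusted p = 0.194). LHCA1, chosen after its values were seen, had 1002, 157 and 929 CPM in iaa32iaa34 and 201, 251 and 150 CPM in WT. Here replicate 2 of iaa32iaa34 lay inside the WT range, and without it the log2 fold change was 2.29 ± 0.23 (limma, adjusted p = 0.0188). Of 15 chlorophyll synthesis genes none passed, 13 were above 0, against 41.8% of all genes, and the median was 0.42. It was 0.65 without iaa32iaa34 replicate 2 and 0.23 without WT replicate 3. CRD1, a cyclase subunit of chlorophyll synthesis, had 728, 235 and 678 CPM in iaa32iaa34 and 225, 333 and 179 CPM in WT, with overlap (limma, adjusted p = 0.324). Of 7 greening regulator genes none passed, with a median of 0.40, which was 0.65 without iaa32iaa34 replicate 2 and 0.19 without iaa32iaa34 replicate 1. Among light signalling genes none of 16 passed, with a median of 0.10 (leave-one-out range 0.01 to 0.16). PIF7, a phytochrome-interacting factor, had 14.4, 3.19 and 11.1 CPM in iaa32iaa34, against 2.18, 2.35 and 2.30 CPM in WT (limma, adjusted p = 0.23), and passed without iaa32iaa34 replicate 2 (limma, log2 fold change 2.05 ± 0.20, adjusted p = 0.0174). The transcripts of the plastid genome numbered 100, of which 86 were above 0, against 41.8% of all genes, 11 lay wholly above WT, against 6.54% of all genes, and none passed. Their median was 0.30, and 0.02 without WT replicate 3, the library in which these transcripts were lowest. These genes mark green tissue such as cotyledons, and the part of tissue carried over at excision, or of greening, in their difference was not tested. In such bulk samples fewer cells of a type and less RNA per cell cannot be told apart.

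**Figure D4:**
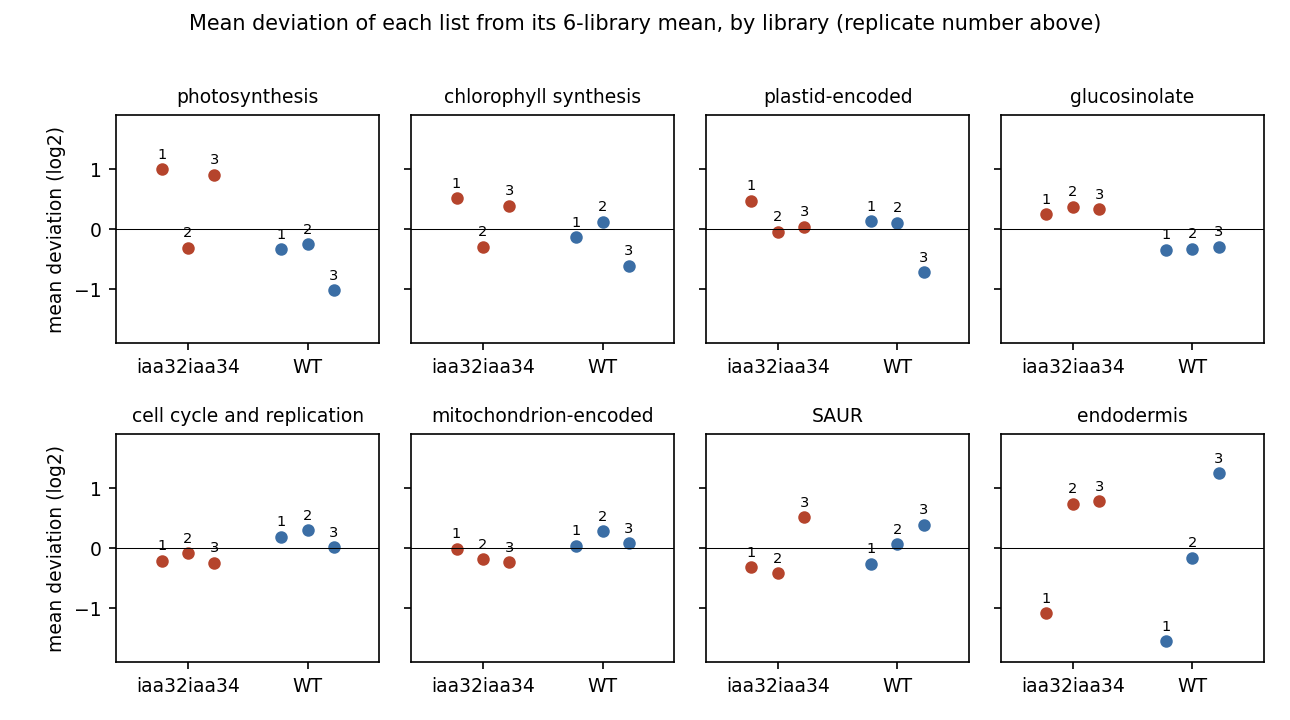
Mean deviation of the genes of 8 lists from their 6-library mean, in log2 units, for each library of iaa32iaa34 (left, red) and WT (right, blue). Numbers above the points are replicate numbers. For photosynthesis, iaa32iaa34 replicates 1 and 3 are at 1.00 and 0.91 and replicate 2 at -0.31, whereas for glucosinolate genes all iaa32iaa34 libraries lie above all WT libraries.

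Genes of other tissues and of growth were examined the same way, with lists also chosen with earlier results of these data known. Of 25 cell cycle and DNA replication genes none passed, 24 were below 0, against 58.2% of all genes, and 12 lay wholly below WT, against 14.6%, with a median of -0.35. MCM4, a subunit of the replicative helicase, had 15.9, 19.1 and 14.2 CPM in iaa32iaa34, against 26.2, 36 and 22.6 CPM in WT (limma, log2 fold change -0.73 ± 0.20, adjusted p = 0.223). PCNA2, the sliding clamp of DNA polymerase, had 18.18, 21.2 and 24.8 CPM in iaa32iaa34, against 31.2, 29.96 and 32 CPM in WT (limma, log2 fold change -0.53 ± 0.15, adjusted p = 0.235). The median of the list stayed between -0.45 and -0.31 when any library was left out. Of 30 transcripts of the mitochondrial genome none passed, 24 were below 0, against 58.2% of all genes, and 9 lay wholly below WT, against 14.6% of all genes. The median was -0.29 (leave-one-out range -0.31 to -0.27). Their summed level was 2460 to 3826 CPM in iaa32iaa34, against 3964 to 5063 CPM in WT.

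Glucosinolate genes, which make and break down defence compounds of the cabbage family, differed in mean deviation between every iaa32iaa34 library and every WT library. Of 8 measured members all were above 0, against 41.8% of all genes, 3 lay wholly above WT, against 6.54% of all genes, and none passed. The median was 0.58 (leave-one-out range 0.50 to 0.83). Their summed level was 642 to 788 CPM in iaa32iaa34, against 362 to 446 CPM in WT. TGG1, a myrosinase gene, had 465, 419 and 292 CPM in iaa32iaa34, against 254, 245 and 89.8 CPM in WT (limma, adjusted p = 0.278). It thus made up a large part of the summed level, which does not describe the members evenly. MYB28, a regulator of aliphatic glucosinolates, had 13.3, 7.98 and 12 CPM in iaa32iaa34, against 5.27, 5.20 and 5.03 CPM in WT (limma, log2 fold change 0.95 ± 0.21, adjusted p = 0.19). CYP79B2, which turns tryptophan into the precursor of indole glucosinolates, had 30.2, 37.5 and 40.7 CPM in iaa32iaa34, against 19.6, 18.4 and 25.9 CPM in WT (limma, log2 fold change 0.74 ± 0.18, adjusted p = 0.194). Of 12 phenylpropanoid and flavonoid genes none passed, with a median of 0.22, which was -0.05 without WT replicate 1 and 0.42 without iaa32iaa34 replicate 2. FER1, a ferritin of iron storage, had 94.4, 134 and 141 CPM in iaa32iaa34, against 53.6, 68.9 and 55.4 CPM in WT, without overlap (limma, log2 fold change 1.03 ± 0.19, adjusted p = 0.169), and the 3 measured iron genes had a median of 0.33 (leave-one-out range 0.16 to 0.57).

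Endodermis markers varied widely among libraries of both genotypes. Of 9 endodermis genes 8 were above 0, against 41.8% of all genes, with a median of 0.40, but the mean deviations were -1.08, 0.74 and 0.78 in iaa32iaa34, against -1.55, -0.15 and 1.25 in WT. CASP1, a protein of the Casparian strip, had 3.98, 37.2 and 29.3 CPM in iaa32iaa34 and 1.82, 10.1 and 65.4 CPM in WT, with overlap (limma, adjusted p = 0.866). The median ran from -0.58 without WT replicate 1 to 1.32 without WT replicate 3, and was 0.01 without iaa32iaa34 replicate 2. Of 4 phloem genes all were above 0, against 41.8% of all genes, and 3 lay wholly above WT, against 6.54% of all genes. The median was 0.44 (leave-one-out range 0.35 to 0.51). SUC2, the sucrose carrier of companion cells, had 106, 115 and 109 CPM in iaa32iaa34, against 79.8, 72.9 and 74.3 CPM in WT (limma, log2 fold change 0.53 ± 0.13, adjusted p = 0.194). Of 13 xylem and secondary wall genes and 6 epidermis and guard cell genes none passed, with medians of -0.05 and 0.13 (leave-one-out ranges -0.15 to 0.01 and 0.05 to 0.18), and the xylem median was 0.01 with median-of-ratios scaling. Of the root list only PYK10 of 5 genes was measured, with a log2 fold change of 0.03, and of the shoot meristem list only KNAT1 of 5, with 0.05. Both signs turned without WT replicate 1. Heat shock, a sign of handling, had 5 measured genes, none past the threshold, with a median of -0.42 (leave-one-out range -0.54 to -0.22). Seed oil breakdown, with ICL, had 8 genes and a median of 0.08, which was -0.07 without iaa32iaa34 replicate 2. The circadian clock had 8 genes and a median of 0.06, which was -0.24 without iaa32iaa34 replicate 1 and -0.22 without WT replicate 3. The 5 reference genes had a median of -0.12 (leave-one-out range -0.19 to -0.08).

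**Figure D5:**
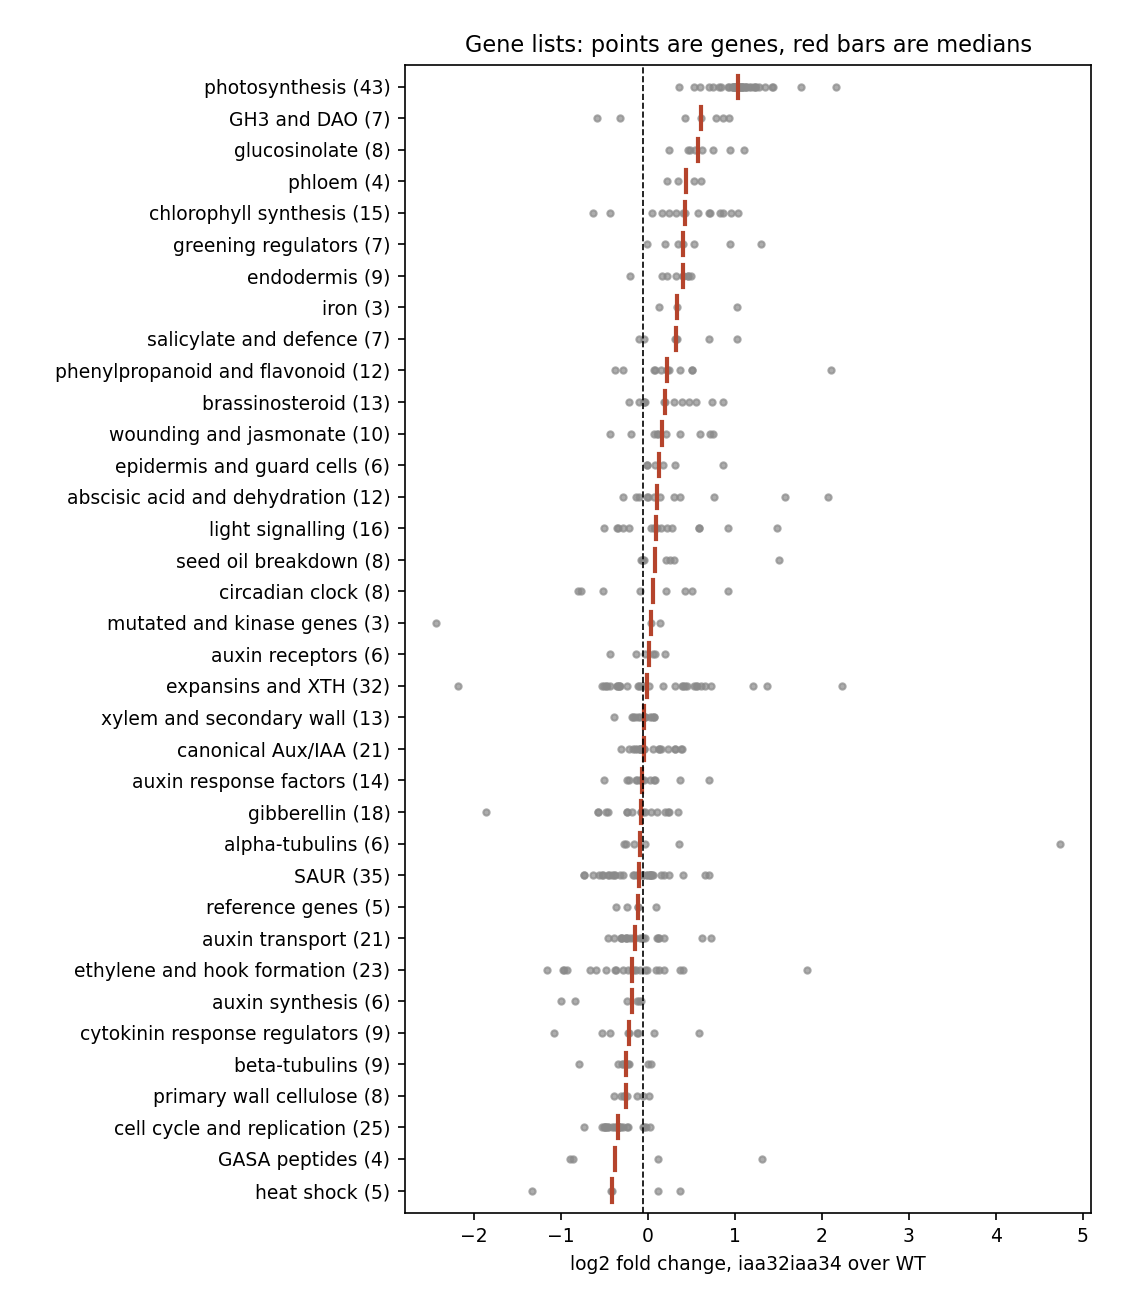
Log2 fold changes of iaa32iaa34 over WT for the members of each gene list with at least 3 measured genes (points) and the list medians (red bars). The number measured is in brackets, the dashed line is the median of all genes at -0.06, and organelle-encoded transcripts are left out. Photosynthesis has the highest median at 1.03, with its members from 0.36 to 2.16, and TUA2 lies far to the right of the other alpha-tubulins.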

How the data were processed

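RNA-seq libraries of apical hooks were grouped by the genotype in the labels, with replicate numbers from the library titles. The authors deposited 1 table of CPM values for 16383 genes, and 6 of its 9 library columns were used. The submitters' processing notes name HISAT and HTSeq with no version. Genome build, annotation and the strand option of counting were not given in the sources used here. The library kit was strand-specific, per the labels' protocols. Every value of a column was a whole number of its smallest step (tolerance 0.01 of a read), and the step gave the library totals. The table held 88.6 to 89.7% of each total. A floor of 3 reads was worth 0.244 to 0.284 CPM. The steps were used for description and for reads of single genes, and no count model was fitted.

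CPM values were taken as log2(CPM + 1) and compared with limma 3.58.1 in R 4.3.3 (lmFit, eBayes with a mean-variance trend, genotype only). Tests were two-sided, p-values were adjusted by Benjamini-Hochberg over 16383 genes, and the threshold was 0.05. Changes of low genes are understated on this scale. An exact permutation test has a smallest p of 0.1 with 3 libraries a group and was not used. CPM errors are SDs over libraries, and log2 fold changes carry the standard error of the fit. The fit was also run on simulated data with independent noise for each gene and library. That simulation held no shifts shared by many genes of a library, so it gives no error rate for these data. Alternatives varied the pseudocount, filters, scaling, spread estimate, replicate block and each library in turn. Named genes were IAA32, IAA34, TMK1 and the alpha-tubulins, up to 15 called genes each way with a symbol, a mean of at least 3 CPM and non-overlapping groups, places up to 10 each way filled by smallest p, members of short lists, and of longer lists called members or the 2 with the smallest p. Others, marked in the text or outside this rule, were chosen after their values were seen, among them PIN3, EIN3, ETR2, CASP1 and AT1G50020, AT2G06845 and AT5G35935. Some genes that met the rule are not printed, such as members of the auxin transport, SAUR and cytokinin response regulator lists. The members and the 40 gene lists were chosen with earlier results of these data known. Of 570 listed genes, 456 entered the lists as used. Another 108 were not analysed here, and 6 did not match the reference name. Symbols and neighbour order came from the RefSeq annotation of TAIR10.1, in which 16240 identifiers were found and 7212 had a symbol.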

Additional observations from a re-analysis of the deposited data

How the results depend on the processing

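The count of calls was 12 in the fit as reported. With all 9 libraries of the series sharing 1 estimate of spread it was 25, of which 10 were among the 12. It ranged from 5 to 168 when 1 library was left out, with 5 to 12 of the 12 kept. The other 9 alternatives gave 9 to 14 calls. The cause was not tested, except that a filter on the mean CPM tested fewer genes. The sources used here do not say whether replicate numbers pair the samples across genotypes. Deviations from the group means correlated at r = 0.348, -0.398 and 0.459 for same-numbered libraries. For differently numbered libraries r was -0.628 to 0.469. So few correlations cannot decide whether the samples are paired. A fit with a replicate block called 14 genes, and 8 of the 12 were kept. No named gene reversed, and of results for single genes 41 weakened and 12 strengthened past the threshold, among 2242 pairs of a gene and a setting. Another 12 values of genes not called moved by more than the spread between replicates. Of 672 pairs of a gene list and a setting, 36 medians moved by that measure. The median of 15 of 42 lists changed sign under at least 1 alternative, all 15 with a library left out and 3 of them also under another scaling. A count test on reads inferred from the CPM steps was planned and not run, so the calls rest on limma alone. Low genes are limited by depth, as 1 read was worth 0.0812 to 0.0947 CPM.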
